A study of Mus musculus with 22 samples.

Results

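The AP-1 FOS and JUN family consists of the 7 genes *Fos*, *Fosb*, *Fosl1*, *Fosl2*, *Jun*, *Junb* and *Jund*, which were picked by name out of the 55401 gene identifiers of the count table. They were chosen with their levels across the 6 groups already known, and genes of the family that behave unlike *Fos* and *Fosb* were kept. Their own levels and fold changes are therefore given as a description, without *P* values. RNA-seq was performed on mouse embryonic fibroblasts (MEFs), primary cells grown from mid-gestation embryos of C57BL/6 mice, with 1 library per sample and 22 libraries in all. The *S6K1* set comprised 4 early WT libraries (passage 3), 4 late WT libraries (passage 8) and 3 late *S6K1* KO libraries (passage 8). The *S6K1/S6K2* set comprised 4 early WT libraries (passage 3), 4 late WT libraries (passage 8) and 3 late *S6K1/S6K2* double KO (DKO) libraries (passage 8). The targeted genes *Rps6kb1* and *Rps6kb2* encode the S6 kinases S6K1 and S6K2, which act downstream of mTORC1. All MEFs were grown in serum-containing medium at atmospheric oxygen, with the medium renewed between passages. Neither the labels nor the methods say how long after the last medium change or seeding the RNA was taken. *S6K1* KO MEFs and their WT controls were prepared from embryos of shared mothers, whereas the WT controls of the DKO MEFs came from WT mothers at earlier breeding stages, so that genotype and litter cannot be told apart in the DKO comparison. The labels do not say whether the libraries of a group came from separate embryos or cultures. Y-linked transcripts were above 1 CPM in some but not all libraries of 5 of the 6 groups, so that these groups held cells of more than 1 embryo, and *P* values measure the spread between these samples.

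AP-1 is a dimeric transcription factor of basic leucine zipper (bZIP) proteins. JUN proteins pair with each other or with FOS proteins, whereas FOS proteins need a JUN partner to bind DNA. *Fos* and *Fosb* are immediate-early genes, which are transcribed within minutes of serum or growth factor stimulation through MAP kinases, SRF with its ELK cofactors, and CREB, and whose transcripts decay quickly. *Jun* and *Junb* are also inducible, *Jund* is usually expressed in resting fibroblasts, and *Fosl1* and *Fosl2*, which encode FRA-1 and FRA-2, are induced later and more lastingly in fibroblasts.

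The 250 bases before the start sites are shown for *Fos*, *Jun* and *Junb*, whose levels moved by very different amounts between the same groups. Whether these sequences have a part in the levels was not tested. The sequences and positions are those of RefSeq on GRCm38.p6, in transcript orientation. *Fos* lies on the plus strand of chromosome 12 (85473890 to 85477274), and its window is chr12:85473640-85473889. *Jun* lies on the minus strand of chromosome 4 (95049036 to 95052222), with the window chr4:95052223-95052472, and *Junb* lies on the minus strand of chromosome 8 (84976909 to 84978748), with the window chr8:84978749-84978998. Capitals mark TGACG, the half-site of the cAMP response element, in *Fos* and *Junb*, the TATAAA box in *Fos*, and the AP-1-like site TGACATCA in *Jun*.
Fos: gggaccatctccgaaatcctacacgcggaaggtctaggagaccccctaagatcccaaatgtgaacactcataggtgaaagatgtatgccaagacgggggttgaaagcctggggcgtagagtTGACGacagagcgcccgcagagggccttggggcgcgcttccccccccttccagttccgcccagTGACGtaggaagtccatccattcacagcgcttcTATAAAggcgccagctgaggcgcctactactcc
Jun: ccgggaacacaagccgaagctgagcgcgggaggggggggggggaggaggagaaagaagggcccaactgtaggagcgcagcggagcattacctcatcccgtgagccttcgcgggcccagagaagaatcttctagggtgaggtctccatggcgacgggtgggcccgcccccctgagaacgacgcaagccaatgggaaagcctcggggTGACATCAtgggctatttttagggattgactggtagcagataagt
Junb: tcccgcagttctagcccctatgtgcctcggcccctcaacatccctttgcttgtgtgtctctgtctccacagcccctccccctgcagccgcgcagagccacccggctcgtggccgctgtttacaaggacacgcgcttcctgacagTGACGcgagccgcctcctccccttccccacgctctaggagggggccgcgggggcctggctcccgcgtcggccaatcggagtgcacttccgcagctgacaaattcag
Counted from the start site, TGACG began at −129 and −66 in *Fos*, at −106 in *Junb* and at −60 in *Fosb*, whose window lies partly within the longest RefSeq span of that gene and is not shown. TGACG or its reverse complement CGTCA was present in 17.8% of all 32851 windows of this length. TATAAA, searched on the gene's strand, began at −33 in *Fos* and was found in 7.59% of windows. TGACATCA, which does not overlap TGACG, began at −45 in *Jun* and was found, on either strand, in 2.93% of windows. None of these 3 motifs was matched in the windows of *Fosl2* and *Jund*. No window of the 6 genes held the full cAMP response element TGACGTCA, the AP-1 site TGACTCA or a CArG box, which were found in 1.55%, 4.46% and 1.47% of windows, respectively. Sequence farther than 250 bases before the start sites was not searched, so a motif missing here can still lie upstream. These matches are letters only and do not show binding.

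The total count per library was 10742454 to 17314832, and no group stood apart in depth. Levels are given as CPM, the counts of a gene divided by the scaled library size, after TMM scaling over the 22 libraries, and 3 counts correspond to 0.166 to 0.283 CPM. The mean *Rps6kb1* level was 20.1 ± 5.15 CPM in the 3 KO libraries and 63.7 ± 8.78 CPM (SD) in the 4 late WT libraries of the *S6K1* set. In DKO MEFs, *Rps6kb1* averaged 23.6 ± 4.30 CPM and *Rps6kb2* 0.804 ± 0.484 CPM (SD, n = 3), compared with 73.5 ± 10.7 and 13.1 ± 2.56 CPM for their late WT controls (SD, n = 4), so that the labels matched the targeted genes. All 12 fibroblast markers were detected in every group, with summed levels of 20256 to 42449 CPM per library. The 19 macrophage markers were also detected in every group. Their summed level was 496 to 1171 CPM in early WT and 5659 to 11696 CPM in late WT MEFs of the *S6K1* set, and 636 to 2132 CPM in early WT and 7872 to 13493 CPM in late WT MEFs of the *S6K1/S6K2* set. It was 3864 to 5165 CPM in late KO and 1000.5 to 3617 CPM in late DKO MEFs. In bulk samples such as these, a change in the share of one cell type and a change in RNA per cell cannot be told apart.

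*Fos* and *Fosb* were high in 3 groups and low in the other 3, and the same passage was high in one set and low in the other. In early WT MEFs of the *S6K1* set, *Fos* was at 243, 153, 205 and 141 CPM. In late WT MEFs of that set it was at 8.48, 4.47, 5.86 and 5.08 CPM, and in late KO MEFs at 5.22, 5.32 and 5.59 CPM. Each early library was thus far above all 7 late libraries, and KO and WT libraries overlapped. In the *S6K1/S6K2* set, *Fos* was at 5.04, 3.62, 4.88 and 7.53 CPM in early WT MEFs and at 240, 267, 161 and 283 CPM in late WT MEFs. In late DKO MEFs it was at 207, 263 and 335 CPM. Here the early libraries were the low ones, and the DKO libraries lay among or above the late WT libraries. On the fold scale, the *Fos* level in late WT MEFs was lower than in early WT MEFs by a log2 fold change of −4.96 ± 0.24 (SE) in the *S6K1* set and higher by 5.54 ± 0.28 in the *S6K1/S6K2* set.

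*Fosb*, which encodes the full-length FOSB and the truncated ΔFOSB proteins, was high and low in the same groups at lower levels. In the *S6K1* set it was at 78.5, 70.1, 65.9 and 96.6 CPM in early WT MEFs and at 1.94, 1.276, 1.16 and 1.02 CPM in late WT MEFs. Late KO MEFs of this set had 1.83, 0.866 and 2.19 CPM. The late libraries therefore held only 12 to 29 *Fosb* reads each, and their spread includes a large counting error. *Fosb* in the *S6K1/S6K2* set was at 1.42, 3.07, 1.498 and 1.39 CPM in early WT MEFs and at 86.9, 77.8, 53.9 and 113.4 CPM in late WT MEFs. Late DKO MEFs had 62.6, 98.02 and 113.5 CPM and overlapped with late WT MEFs. The log2 fold change between late and early WT MEFs was −5.85 ± 0.30 (SE) in the *S6K1* set and 5.53 ± 0.35 in the *S6K1/S6K2* set. For both genes the 3 low groups could not be put in order, because neighbouring group means differed by less than the larger SD and the libraries overlapped, and the same held for the 3 high groups. Over the 6 group means, *Fos* ranged over 50.9-fold and *Fosb* over 67.7-fold.

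**Figure D1:**
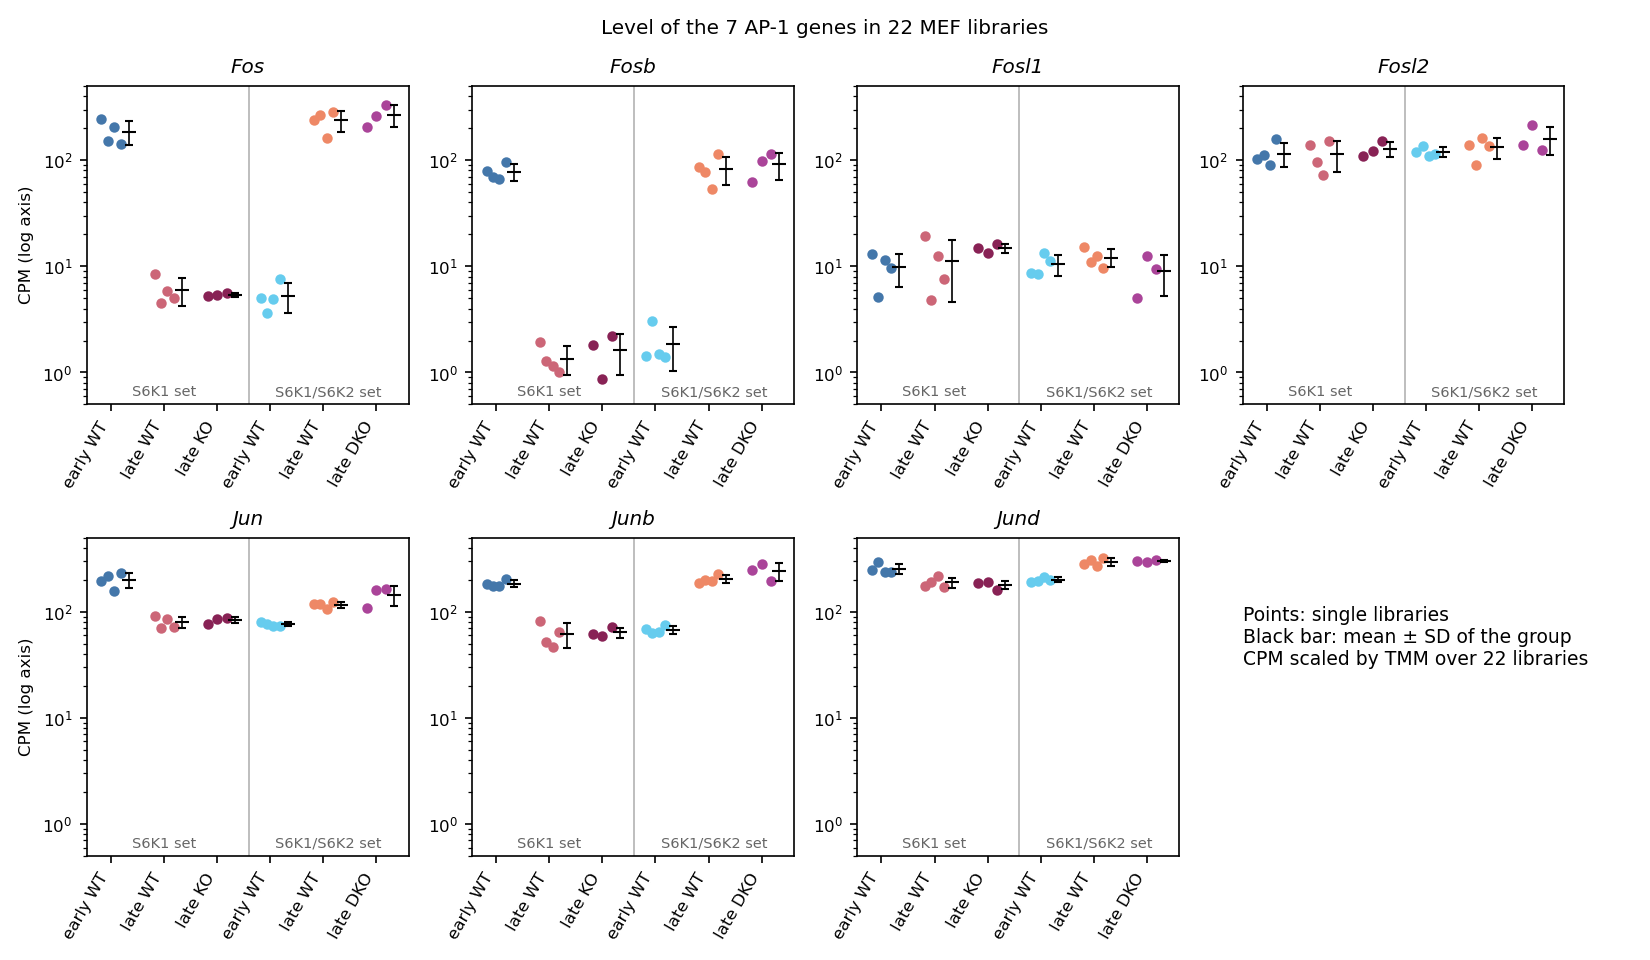
CPM (log axis) of each AP-1 gene in every library, with 1 point per library and the mean ± SD of each group in black, for the *S6K1* set on the left and the *S6K1/S6K2* set on the right of each panel. *Fos* lay between 3.62 and 8.48 CPM in 3 groups and between 141 and 335 CPM in the other 3, whereas *Fosl2* overlapped between all groups and *Fosl1* between all groups next to each other in the order of means.

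*Fosl1* and *Fosl2* did not share this pattern. *Fosl1* averaged 9.79 ± 3.39 and 11.1 ± 6.48 CPM (SD, n = 4) in early and late WT MEFs and 14.8 ± 1.48 CPM (SD, n = 3) in late KO MEFs of the *S6K1* set. It averaged 10.4 ± 2.23 and 12.1 ± 2.33 CPM (SD, n = 4) in early and late WT MEFs and 9.01 ± 3.71 CPM (SD, n = 3) in DKO MEFs of the other set. Its spread within a group reached 4.79 to 19.5 CPM in late WT MEFs of the *S6K1* set, the whole range over all 22 libraries. *Fosl2* was expressed at a similar CPM in all groups, from 114 ± 37.1 CPM (SD, n = 4) for *S6K1* set late WT to 159 ± 46.6 CPM (SD, n = 3) for late DKO MEFs. Group means of *Fosl1* differed by at most 1.65-fold and those of *Fosl2* by at most 1.40-fold, and the libraries of neighbouring groups in the order of means overlapped for both genes. The exons of *Fosl1* overlap those of *Ccdc85b* on the other strand, and since the strand setting of the counting is not given, reads of such a pair cannot be separated.

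The JUN genes had the same high and low groups as *Fos* but with smaller differences. *Jun*, the founding partner of *Fos*, was at 196, 217, 156 and 232 CPM in early WT MEFs of the *S6K1* set. In late WT MEFs it was at 90.5, 70.5, 85.5 and 71.5 CPM, and in late KO MEFs at 77.0, 85.3 and 86.7 CPM. All late libraries were below all early ones. For *Jun*, the *S6K1/S6K2* set had 80.4, 77.2, 73.9 and 73.6 CPM in early WT MEFs and 118, 117, 107 and 124 CPM in late WT MEFs. Late DKO MEFs had 108, 160 and 163 CPM. Although late WT and early WT MEFs of this set did not overlap, late WT MEFs did not reach the level of early WT MEFs of the *S6K1* set, the highest group for *Jun*. The passage log2 fold change was −1.34 ± 0.16 (SE) in the *S6K1* set and 0.66 ± 0.13 in the *S6K1/S6K2* set.

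*Junb*, whose product can oppose JUN in promoting proliferation, was at 184, 175, 174 and 203 CPM in early WT MEFs of the *S6K1* set and at 82.4, 52.0, 46.2 and 64.9 CPM in late WT MEFs. Levels in the other set were 68.4, 62.9, 64.0 and 74.8 CPM for early WT MEFs and 188, 198, 196 and 228 CPM in late WT MEFs. Late KO MEFs had 61.6, 58.4 and 71.3 CPM, and late DKO MEFs 248, 284 and 193 CPM. The low and high groups of *Junb* were separated by a gap between 82.4 and 174 CPM, and the passage log2 fold changes were −1.59 ± 0.18 (SE) and 1.63 ± 0.14, of nearly the same size in opposite directions.

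*Jund*, the family gene with the highest mean CPM in every group, varied least among these 5 genes. It averaged 253 ± 28.9 and 188 ± 21.3 CPM (SD, n = 4) in early and late WT MEFs of the *S6K1* set, and 200.1 ± 9.89 and 295 ± 24.01 CPM (SD, n = 4) in early and late WT MEFs of the *S6K1/S6K2* set. Late KO MEFs averaged 179 ± 15.9 CPM and late DKO MEFs 301 ± 5.96 CPM (SD, n = 3). The passage log2 fold change was −0.44 ± 0.13 (SE) in the *S6K1* set and 0.60 ± 0.099 in the *S6K1/S6K2* set, and the early and late libraries did not overlap in either set. Over all 22 libraries, the 11 libraries of the 3 high groups lay between 235 and 322 CPM and the other 11 between 161 and 218 CPM. The exons of *Jun* overlap the antisense gene *BC042782* and those of *Jund* overlap *Gm11175*. These partners were at 0.567 to 2.36 and 0.311 to 8.18 CPM, far below *Jun* and *Jund* in every library.

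**Figure D2:**
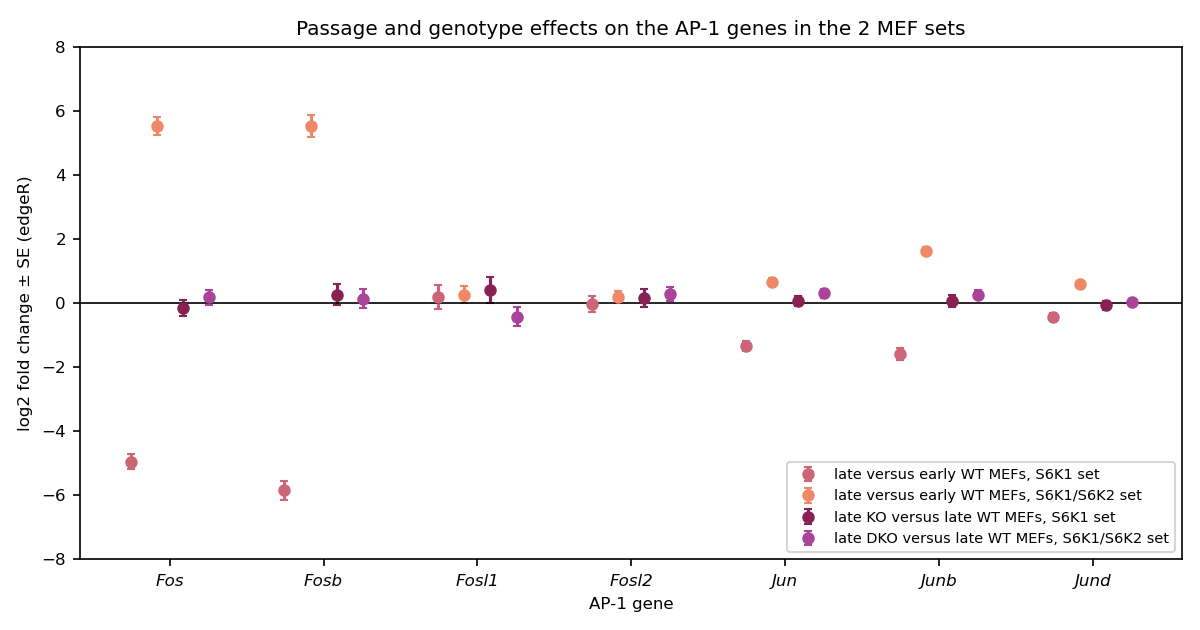
Log2 fold change ± SE from edgeR for each AP-1 gene in the 4 comparisons, with passage effects in red and orange and genotype effects in dark and light purple. *Fos*, *Fosb*, *Jun*, *Junb* and *Jund* lie below 0 for passage in the *S6K1* set and above 0 in the *S6K1/S6K2* set, and all genotype effects lie between −0.42 and 0.41.

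In the comparison of late with early WT MEFs of the *S6K1* set, 4 of the 7 genes (*Fos*, *Fosb*, *Jun* and *Junb*) were past an adjusted *P* of 0.05 in edgeR's quasi-likelihood test and lower, against 5.97% of the 14132 genes tested. The libraries did not overlap for 5 of the 7, all lower at late passage, against 18.2% of all genes in either direction. In the *S6K1/S6K2* set, 5 of 7 were past the threshold and higher, against 8.28% of 14365 genes, and the same 5 did not overlap, against 20.5% of all genes in either direction. In DESeq2, 5 of 7 were called in each set, where 2655 (*S6K1* set) and 2845 (*S6K1/S6K2* set) of all genes were. At an unadjusted *P* under 0.05 in edgeR it was also 5 of 7 in each, where 3896 and 4452 of all genes were. The median log2 fold change of the 7 genes was −1.34 in the *S6K1* set, where that of all genes was −0.04, and 0.66 in the *S6K1/S6K2* set, where that of all genes was 0.01. These counts were fixed by how the genes were chosen and carry no further weight. Of the 13898 genes tested in both sets, 32 (0.230%) had non-overlapping libraries that were lower with passage in the *S6K1* set and higher in the *S6K1/S6K2* set, the 5 AP-1 genes among them. The difference between the passage effects (*S6K1/S6K2* set minus *S6K1* set) was 10.46 ± 0.38 (SE, log2) for *Fos*, 11.35 ± 0.47 for *Fosb*, 3.18 ± 0.23 for *Junb*, 1.97 ± 0.20 for *Jun* and 1.01 ± 0.15 for *Jund*. For *Fosl1* and *Fosl2* it was 0.05 ± 0.48 and 0.18 ± 0.34.

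For *Fos*, *Fosb*, *Jun*, *Junb* and *Jund*, genotype differences were smaller than the passage differences of the same set. For *Fosl1* and *Fosl2* they were not. In late *S6K1* KO against late WT MEFs, the log2 fold change was −0.15 ± 0.24 (SE) for *Fos*, 0.26 ± 0.33 for *Fosb*, 0.41 ± 0.41 for *Fosl1* and 0.16 ± 0.27 for *Fosl2*. It was 0.06 ± 0.17 for *Jun*, 0.05 ± 0.19 for *Junb* and −0.07 ± 0.14 for *Jund*. No gene of the 7 was past the threshold in edgeR, against 0.0425% of all genes. None was past it in DESeq2 or at an unadjusted *P* under 0.05. None was without overlap, against 13.1% of all genes. With so few genes past the threshold, none would be usual for any 7 genes. The 7 were also chosen with these levels known, so these counts carry no further weight. Y-linked transcripts were above 1 CPM in all 3 KO libraries and in 1 of the 4 late WT libraries of this set, and their part in the result was tested only as a covariate, with which the log2 fold change of *Fosl2* became 0.71.

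In late DKO against late WT MEFs, the log2 fold change was 0.18 ± 0.24 (SE) for *Fos*, 0.14 ± 0.29 for *Fosb*, −0.42 ± 0.28 for *Fosl1* and 0.27 ± 0.22 for *Fosl2*. It was 0.30 ± 0.14 for *Jun*, 0.26 ± 0.14 for *Junb* and 0.03 ± 0.11 for *Jund*. Again 0 of 7 were past the threshold in edgeR or DESeq2 and 1 of 7 was at an unadjusted *P* under 0.05, where 4.78% of all genes were past the threshold, and 0 of 7 were without overlap, against 16.2% of all genes. In the same comparison 17 of the 19 macrophage markers fell (median log2 fold change −2.33), where 568 of 14365 genes were past the threshold and lower. *Fos*, *Fosb*, *Jun*, *Junb* and *Jund* stayed within the range of the late WT libraries or above it. All 19 macrophage markers rose with passage in both sets (median log2 fold change 3.00 and 2.57). Of all genes, 983 of 14132 and 1190 of 14365 rose past the threshold. These 5 AP-1 genes were lower with passage in one set and higher in the other. The part of these markers in the levels of the AP-1 genes was not tested. The difference between the genotype effects (DKO in its set minus KO in its set) was between −0.82 ± 0.52 for *Fosl1* and 0.34 ± 0.36 for *Fos* (SE, log2). Here 0 of 7 were past the threshold in edgeR, against 0.00672% of all genes. None was past it in DESeq2 or at an unadjusted *P* under 0.05. The counts of the 7 genes for DKO and for this difference carry no further weight either, because the levels were known.

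Because CPM depends on transcript length, levels of different genes were compared per kilobase of exon, with merged exon lengths of 1707 bases (*Fosl1*) to 5855 bases (*Fosl2*). The 7 genes summed to 378 ± 18.7, 404 ± 42.4 and 454 ± 43.5 CPM per kb (SD, n = 4, 4 and 3) in the high groups, which were *S6K1* set early WT, *S6K1/S6K2* set late WT and DKO MEFs in this order. In the 3 other groups the sum was 153 ± 15.2 (late WT, *S6K1* set), 157 ± 4.32 (late KO) and 160 ± 2.89 CPM per kb (early WT, *S6K1/S6K2* set; SD, n = 4, 3 and 4). The lowest library of the former groups, at 353 CPM per kb, was above the highest of the latter, at 174 CPM per kb.

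The composition differed together with the sum. On this scale *Fos* held 20.9% ± 5.15, 24.8% ± 3.72 and 25.0% ± 4.89 (SD) of the family total in the 3 high groups and 1.39% to 1.63% on average in the low groups. *Jund* held 23.2% to 25.4% in the high groups and 39.7% to 43.4% in the low groups, where it was the largest single share. *Fosl2* held 5.21% to 5.96% in the high and 12.7% to 13.9% in the low groups, although its CPM overlapped between them. *Junb* had mean shares of 21.97% to 29.5% throughout. *Jun* held 14.9% to 16.6% in the *S6K1* set and in early WT MEFs of the *S6K1/S6K2* set, but only 9.09% ± 0.434 and 9.86% ± 1.39 (SD) in late WT and DKO MEFs. The ratio of summed JUN to summed FOS transcripts averaged 2.06, 1.67 and 1.71 in the high groups and 4.55, 3.76 and 4.47 in the low groups, with libraries between 1.33 and 2.53 and between 3.18 and 5.70, respectively. *Fosl1*, *Fosl2* and *Fosb* together outnumbered *Fos* on this scale in the low groups, and *Fos* outnumbered them in the means of the high groups.

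**Figure D3:**
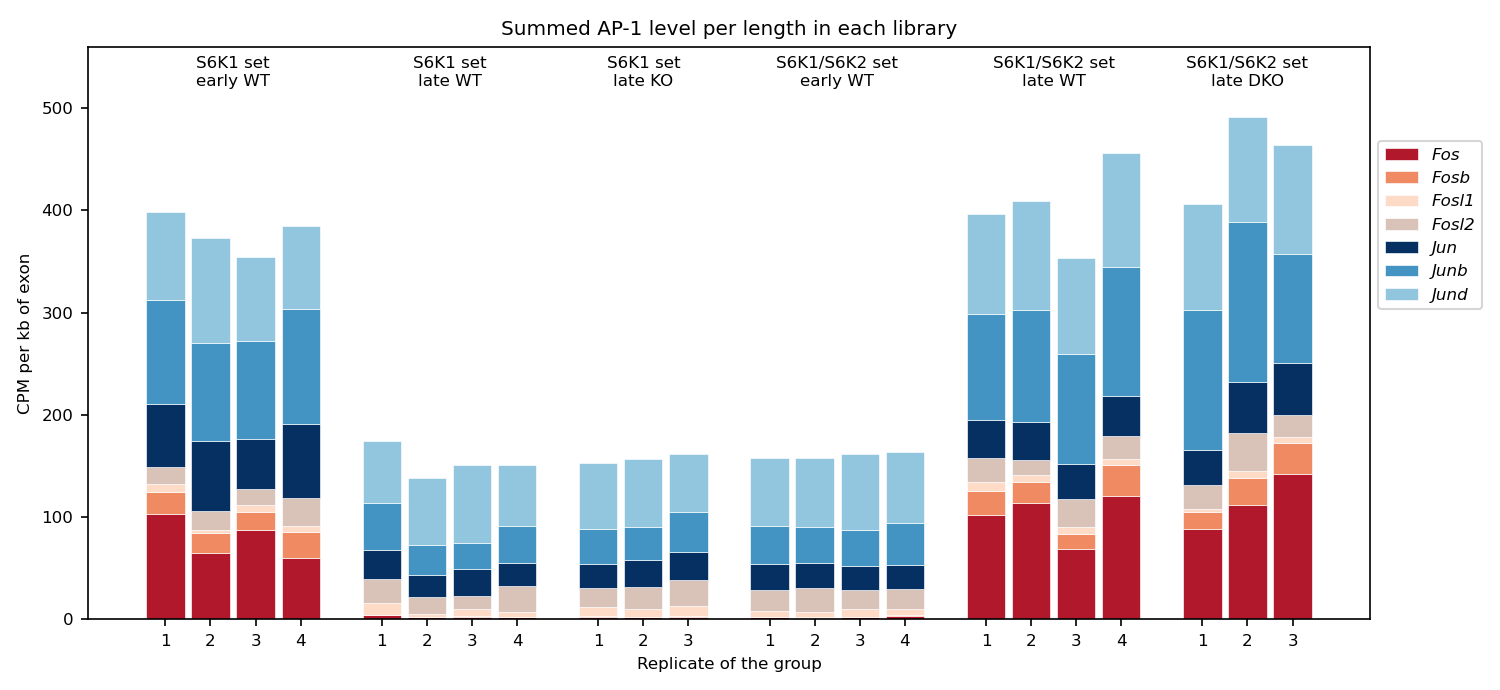
CPM per kb of exon of the 7 AP-1 genes, stacked for each library, with FOS genes in red tones and JUN genes in blue tones. The stacks reach 353 to 492 CPM per kb in 3 groups and 138 to 174 in the other 3, where *Fos* and *Fosb* are nearly invisible.

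Among the other bZIP genes that can pair with FOS or JUN (12 listed), *Atf3*, a stress-induced member of the ATF family, was the one with the largest change. None of the 11 tested passed with passage in the *S6K1* set in edgeR (2 at an unadjusted *P* under 0.05 and 2 in DESeq2), where *Atf3* averaged 12.7 ± 7.04 CPM in early and 14.5 ± 5.68 CPM in late WT MEFs (SD, n = 4). In the *S6K1/S6K2* set, 4 of 10 rose with passage, against 8.28% of all genes, among them *Atf3*, *Maf* and *Mafk*. *Atf3* rose from 5.54 ± 1.03 to 37.3 ± 6.23 CPM (SD, n = 4; log2 fold change 2.79 ± 0.17, adjusted *P* = 7.69e-06, edgeR). It fell to 16.1 ± 1.48 CPM in DKO MEFs (SD, n = 3; log2 fold change −1.21 ± 0.18, adjusted *P* = 0.00467, edgeR), in which *Fos* had not fallen. The identifier of *Atf7* was listed at 0 in every library.

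Upstream of the family, transcripts of the kinases and factors that drive AP-1 transcription were examined (29 listed, 28 tested). With passage in the *S6K1* set, 2 of 28 passed, where 1827 of 14132 genes did (edgeR). In the *S6K1/S6K2* set 3 of 28 passed, where 1892 of 14365 genes did. In DKO MEFs 2 of 28 passed, against 4.78% of all genes. Whether these counts differ from those of all genes was not tested. With passage in the *S6K1* set, *Rps6ka1*, which encodes a ribosomal S6 kinase of the ERK pathway, rose (log2 fold change 1.44 ± 0.33, adjusted *P* = 0.0133, edgeR), and *Braf* fell (−0.64 ± 0.17, adjusted *P* = 0.0288). In the *S6K1/S6K2* set, *Map3k1*, *Nras* and *Mapk3* rose with passage by log2 fold changes of 0.62, 0.45 and 0.33 (adjusted *P* = 0.0463, 0.0487 and 0.0399, edgeR). Leaving out single libraries ended the calls of *Braf* (adjusted *P* up to 0.104), *Map3k1* (up to 0.122) and *Nras* (up to 0.161) in at least 7 of 11 cases each. Without early WT replicate 1 of the *S6K1/S6K2* set, none of the 28 was called there, *Mapk3* included. In DKO MEFs *Rps6ka1* and *Rps6ka2* fell (log2 fold change −1.78 ± 0.25 and −0.90 ± 0.20, adjusted *P* = 0.00424 and 0.027, edgeR). For *Rps6ka2* the adjusted *P* was up to 0.14 when single libraries were left out. The macrophage markers also rose with passage in the *S6K1* set and fell in DKO MEFs (median log2 fold change 3.00 and −2.33). They rose with passage in the *S6K1/S6K2* set too (median 2.57), where *Rps6ka1* did not pass. The part of these markers in the level of *Rps6ka1* was not tested. None of the 28 differed in its passage effect between the sets in edgeR or DESeq2 (2 at an unadjusted *P* under 0.05), and *Srf*, *Elk1* and *Creb1* passed in none of the comparisons in edgeR.

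Some feedback genes of the pathway also changed with passage. *Zfp36*, which encodes the mRNA-decay factor tristetraprolin, and *Dusp1*, a MAP kinase phosphatase, were 2 of the 3 genes of this list of 20 that passed with passage in the *S6K1* set. *Zfp36* fell from 54.8 ± 15.5 to 17.2 ± 5.81 CPM (SD, n = 4; log2 fold change −1.67 ± 0.25, adjusted *P* = 0.00115, edgeR), and *Dusp1* from 52.3 ± 18.03 to 24.2 ± 4.098 CPM (−1.11 ± 0.24, adjusted *P* = 0.011). The third, *Spred1*, rose (0.62 ± 0.16, adjusted *P* = 0.0224, edgeR), but not without early WT replicate 2 (adjusted *P* = 0.0646). Among the 19 tested in the *S6K1/S6K2* set, 6 rose with passage, against 8.28% of all genes, and none fell. Without early WT replicate 1, 3 were called. *Zfp36* rose to 124 ± 21.4 CPM (2.46 ± 0.19, adjusted *P* = 4.79e-05, edgeR) and *Dusp1* to 122 ± 15.6 CPM (2.40 ± 0.18, adjusted *P* = 3.91e-05), and the others were *Dusp4*, *Dusp6*, *Dusp10* and *Zfp36l1*. Of the 19 tested, none passed in KO or DKO MEFs in edgeR or DESeq2 (1 and 2 at an unadjusted *P* under 0.05).

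Of the 5 pathway lists, that of other immediate-early genes had the most genes past the threshold in both passage comparisons. All lists were chosen with earlier results of these data known. With passage in the *S6K1* set, 8 of 20 tested genes fell, against 5.97% of all genes, and none rose (median log2 fold change −0.81). They were *Egr1*, *Egr2*, *Ier2*, *Ier3*, *Nr4a1*, *Klf2*, *Ccn1* and *Csrnp1*. *Egr1*, a zinc finger factor induced through SRF, fell from 440 ± 62.0 to 46.0 ± 6.46 CPM (SD, n = 4; log2 fold change −3.26 ± 0.16, adjusted *P* = 4.42e-07, edgeR), and *Ier2* from 156 ± 32.0 to 52.0 ± 3.49 CPM (−1.596 ± 0.17, adjusted *P* = 0.000102). Conversely, 8 of 20 rose in the *S6K1/S6K2* set, against 8.28% of all genes, and none fell (median 0.63). They were *Egr1*, *Egr2*, *Egr3*, *Ier2*, *Nr4a1*, *Klf4*, *Klf6* and *Csrnp1*. *Egr1* rose from 58.2 ± 6.96 to 169 ± 49.7 CPM (SD, n = 4; 1.58 ± 0.21, adjusted *P* = 0.000949, edgeR), a level below that of early WT MEFs of the *S6K1* set. *Egr3* rose as well (1.69 ± 0.41, adjusted *P* = 0.0195, edgeR), except without early WT replicate 2 or 3 (adjusted *P* = 0.0682 and 0.0511). Genes of these lists other than the 2 most changed per direction and comparison were named after their values were seen. The passage effect differed between the sets for 11 of the 20 genes, each higher in the *S6K1/S6K2* set, against 0.457% of the 14886 genes tested. In DKO MEFs only *Ier2* of the 20 passed in edgeR (3 in DESeq2 and 8 at an unadjusted *P* under 0.05), with a rise (0.63 ± 0.16, adjusted *P* = 0.0428, edgeR), a call lost without any 1 of 7 libraries (adjusted *P* up to 0.119), and in KO MEFs none passed in edgeR (1 in DESeq2 and 4 at an unadjusted *P* under 0.05). The rest of the list, such as *Myc*, *Btg2*, *Ier5* and *Gadd45b*, passed in none of the comparisons in edgeR.

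**Figure D4:**
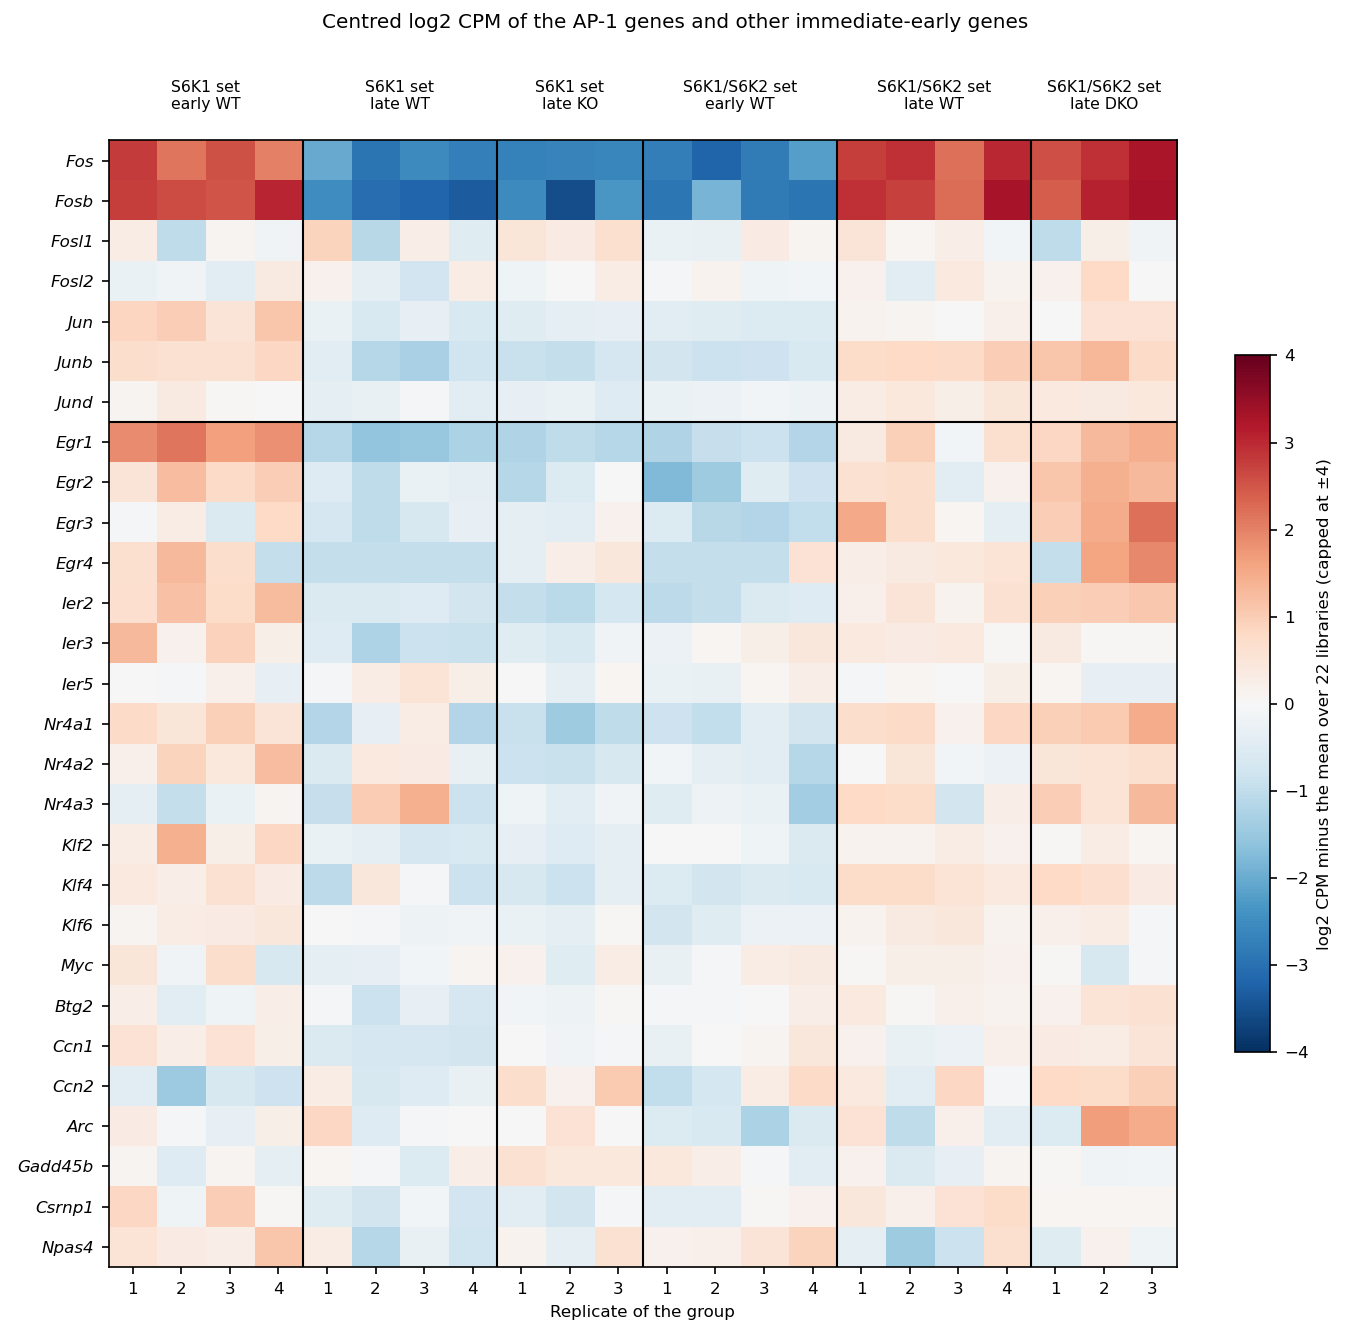
Log2 CPM of the 7 AP-1 genes (above the line) and 21 other immediate-early genes (below) in each library, minus the mean of the gene over the 22 libraries. *Fos* and *Fosb* are 2.01 to 3.29 above their means in 3 groups and below them in the other 3. *Egr1* is 1 of the genes with the same sign by group in nearly every library.

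Classical AP-1 targets were set beside all genes. With passage, 1827 of 14132 genes passed in the *S6K1* set and 1892 of 14365 in the *S6K1/S6K2* set in edgeR. In DESeq2, 2655 and 2845 genes passed. Whether the targets differed from all genes was not tested. Of the 15 tested (among them *Mmp3*, *Mmp13*, *Plau*, *Timp1* and *Ccnd1*), only *Areg*, an EGF receptor ligand, passed with passage in the *S6K1* set in edgeR (6 in DESeq2, 6 at an unadjusted *P* under 0.05 and up to 3 in edgeR when single libraries were left out). *Areg* fell from 2.57 ± 0.925 to 0.470 ± 0.262 CPM (SD, n = 4; log2 fold change −2.45 ± 0.45, adjusted *P* = 0.00372, edgeR). In the *S6K1/S6K2* set none of the 15 passed with passage in edgeR (3 in DESeq2 and 3 at an unadjusted *P* under 0.05), with a median log2 fold change of −0.36, whereas *Fos* was 46.5-fold higher. *Mmp13*, a collagenase with an AP-1 site in its promoter, averaged 36.3 ± 5.31 and 16.6 ± 10.8 CPM in early and late WT MEFs of the *S6K1* set and 53.0 ± 26.7 and 21.0 ± 12.5 CPM in those of the *S6K1/S6K2* set (SD, n = 4), and passed in neither. *Mmp13* was picked after its values were seen. No target differed in its passage effect between the sets in edgeR or DESeq2 (3 at an unadjusted *P* under 0.05), or between late DKO and late WT MEFs (1 at an unadjusted *P* under 0.05). In late KO against late WT MEFs none passed in edgeR (1 in DESeq2 and 5 at an unadjusted *P* under 0.05), with 13 of 15 above 0 and a median log2 fold change of 0.81.

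**Figure D5:**
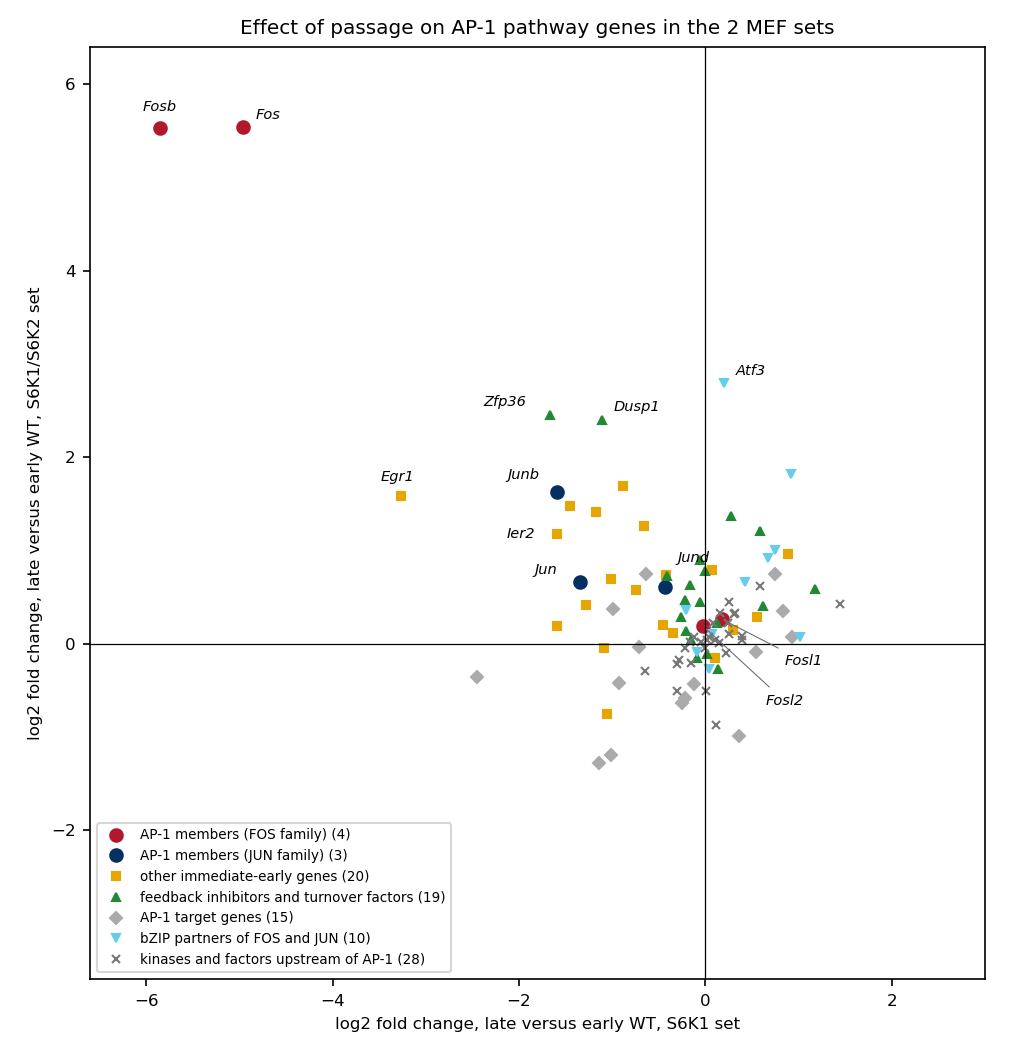
Log2 fold change between late and early WT MEFs in the *S6K1* set (x axis) and in the *S6K1/S6K2* set (y axis) for the AP-1 genes and 5 pathway lists, with 1 point per gene tested in both sets. *Fos* and *Fosb* stand at the upper left with *Egr1*, *Zfp36*, *Dusp1*, *Ier2* and *Junb* between them and the origin, whereas *Fosl1* and *Fosl2* lie near 0. The target *Areg* stands at −2.45 on the x axis and −0.36 on the y axis.

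The patterns of *Fos* and *Fosb*, the only 2 genes of the family whose group means ranged over at least 4-fold, were compared with those of 12469 other genes by the root mean square difference of centred log2 CPM over the 22 libraries, for which 0 means the same pattern. *Fos* and *Fosb* differed from each other by 0.51. The genes nearest to *Fos* were *Egr1* (1.61), *Zfp36* (1.62), *Cxcl2* (1.62) and *Frat2* (1.81), and those nearest to *Fosb* were *Egr1* (1.73), *Cxcl2* (1.79), *Zfp36* (1.82) and the mitochondrial tRNA gene *mt-Tt* (1.92). *Junb* was at 1.84 from *Fos*, nearer than *Jun* (2.25), *Jund* (2.40), *Fosl2* (2.63) and *Fosl1* (2.78). *Cxcl2*, a neutrophil chemokine, averaged 6.06 ± 0.595 and 0.876 ± 0.633 CPM in early and late WT MEFs of the *S6K1* set and 0.168 ± 0.0463 and 4.86 ± 2.39 CPM in those of the *S6K1/S6K2* set (SD, n = 4), but 1.35 ± 0.637 CPM in DKO MEFs (SD, n = 3). *Zfp36*, in contrast, averaged 116 ± 24.6 CPM in DKO MEFs (SD, n = 3). No gene outside the family came as near to *Fos* as *Fosb*. Since the measure includes the size of the differences, genes with a smaller range are farther away even where the order of groups is the same.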

How the data were processed

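The mRNA of 22 MEF samples was sequenced as single-end, strand-specific libraries, and the authors deposited 1 table of raw counts per gene for all 22, with no unused columns. The paper's methods name TopHat and mm9 with HTSeq counting, whereas the submitters' processing notes name CASAVA, STAR 2.7.1a, mm10 and DESeq2 1.28.1, so the build behind the counts is uncertain, and the strand setting is not given in the sources used here. Identifiers were matched by name (32589 of 55401), and 3.02% of counts fell on identifiers without a symbol. Depth per library is given with the results and limits *Fosb* most in its low groups.

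Genes were filtered with filterByExpr, scaled by TMM and tested with the quasi-likelihood test of edgeR 4.0.16 (limma 3.58.1, R 4.3.3), with Benjamini-Hochberg adjustment over all genes tested and a threshold of 0.05. Each comparison was fitted on the 3 groups of its set and each difference between sets on all 6 groups. Late WT libraries enter both the passage and the genotype comparison of their set. Late minus early and KO minus WT were the contrasts, and SE is the log2 fold change divided by the square root of F. Replicates were numbered in accession order. All 30 pairs of replicates differed by more than sampling noise (chi-square per degree of freedom 20.6 to 265.7). Exon lengths came from an mm9 annotation, and promoters and positions from RefSeq on GRCm38.p6, whose promoter windows covered 6 of the 7 genes. The family and all gene lists were chosen with earlier results of these data known. From each list, the 2 largest rises and 2 largest falls past the threshold, and the 2 smallest *P* values for differences between sets, were named with values, with a mean of at least 1 CPM. Scripts were tested on simulated data. Alternatives were DESeq2 1.42.0, other scalings, no filter, other sets of groups, Y-linked genes as covariate, another length and leaving out each library. Results of 2 list genes are not reported here.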

Additional observations from a re-analysis of the deposited data

Results flagged for a closer look

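One of the 32 groups of values checked for a library far from the others was *Fosb* in early WT MEFs of the *S6K1/S6K2* set, where replicate 2 had 3.07 CPM and the nearest of the other 3 libraries 1.498 CPM. Chance gives about 1 such case in 20 groups. The level was still far below that of any late library of this set.

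Passage effects that differed between the sets by a test of the difference itself (edgeR's quasi-likelihood test, all 6 groups) were found for *Egr1*, by 4.81 ± 0.27 (SE, log2; adjusted *P* = 3.64e-10), *Zfp36*, by 4.09 ± 0.33 (adjusted *P* = 1.73e-07), and *Dusp1*, by 3.48 ± 0.32 (adjusted *P* = 1.12e-06). The same held for *Ier2*, by 2.74 ± 0.23 (adjusted *P* = 2.51e-07), and *Atf3*, by 2.56 ± 0.44 (adjusted *P* = 0.0037). Each was the *S6K1/S6K2* set minus the *S6K1* set. The lists that hold these genes were also chosen with earlier results of these data known, so these *P* values are not independent of that choice.

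For *Fos*, *Fosb*, *Jun*, *Junb* and *Jund*, every late WT library was below every early WT library in the *S6K1* set and above every early one in the *S6K1/S6K2* set. The differences were 10.46, 11.35, 1.97, 3.18 and 1.01 on the log2 scale, in this order. They are given without *P* values, because the genes were chosen for this pattern. The WT MEFs of the sets came from different breedings, and nothing in the labels ties samples to a harvest time or date, so that set and these conditions cannot be told apart.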

How the results depend on the processing

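No called result reversed its direction under any alternative run. Small differences that were not called did change sign, among them *Fos* (−0.40 to 0.06), *Fosb* (−0.02 to 0.56), *Fosl2* (−0.03 to 0.71) and *Junb* (−0.08 to 0.30) for KO, *Fosb* for DKO (−0.03 to 0.36), *Fosl1* (−0.24 to 0.43) and *Fosl2* (−0.24 to 0.19) for passage in the *S6K1* set, *Fosl1* and *Fosl2* for the difference in passage effect, and *Fosb* and *Fosl2* for the difference in genotype effect. DESeq2 in place of edgeR raised the genes called from 6 to 266 (KO), from 1892 to 2845 (passage, *S6K1/S6K2* set), from 686 to 1206 (DKO), from 106 to 222 (difference in passage effect) and from 1 to 65 (difference in genotype effect). Without the filter on low counts, 43 genes were called for KO and 3 for the difference in genotype effect, and the fit on all 6 groups called 16 for KO. With Y-linked genes as a covariate, 3265 instead of 1827 genes were called with passage in the *S6K1* set and 38 for KO, where the log2 fold change of *Fosl2* went from 0.16 to 0.71. Scaling by total counts moved the passage effect of *Jun* in the *S6K1/S6K2* set from 0.66 to 0.58 and its early WT level from 76.3 to 79.6 CPM, and the longest coding transcript as length moved the share of *Fos* in KO MEFs from 1.46% to 1.62%. The share of calls that were higher was 17.2% for DKO, 29.5% under DESeq2, 9.66% in the fit on 2 groups and 35.1% without late WT replicate 1. For KO it was 16.7% of 6 calls, 60.5% with the Y-linked covariate and 0% to 55.6% with single libraries left out. Leaving out 1 library at a time gave 2 to 9 calls for KO, 885 (without early WT replicate 1) to 2247 for passage in the *S6K1/S6K2* set, 97 (without DKO replicate 2) to 783 for DKO and 1 to 5 for the difference in genotype effect. The causes were not tested. Depth limits *Fosb*, *Areg* and *Cxcl2* in their low groups. No paired analysis was possible because the labels give the samples of different groups no shared replicate numbers.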
